A study of Mus musculus with 7 samples.

Results

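Lymphoid tissue organizer-like (LTo-like) cells are described here as they occurred among the stromal cells (SCs) of mouse mesenteric lymph nodes (mLNs, which drain the gut) from birth to D300. Members were found by a rule on raw counts of unique molecular identifiers (UMIs, 1 per captured RNA molecule). A cell was an SC if it had no UMI of the endothelial gene Pecam1 and at least 1 UMI of the collagen gene Col1a2. An SC was an LTo-like cell if at least 2 of the 4 genes Cxcl13, Madcam1, Tnfsf11 and Pthlh were detected in it with at least 1 UMI each. By this rule 1155 of 8935 SCs were LTo-like, out of 13197 cells that passed the limits on gene number and mitochondrial share and 17692 cells deposited. They numbered 378 and 401 on days 0 and 10 after birth, 88 on day 24, 234 on day 56 and 54 on day 300.

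The study followed how the mLN stroma is assembled after birth. All mice were of the BALB/c strain, untreated and housed under specific pathogen free conditions, and nodes were taken at birth or within a day of it (D0) or at an age of 10, 24, 56 or 300 days (D10 to D300). After digestion with collagenase and dispase, flow cytometry was used to sort CD45-CD24- cells, that is SCs and endothelial cells without the common surface protein of blood cells. Single-cell libraries were made with droplet-based 3′ chemistry. According to the labels D56 and D300 had 2 libraries each and the younger ages 1 each, whereas the study's text gives D300 a single replicate. The names of the cells tell their age but not their library, so each age counted as 1 pool. The number of mice behind a pool was not given in the sources used here. The kept cells held 29430992, 14883379, 12658225, 23089081 and 10116247 UMIs from the youngest to the oldest age. Every series of values below follows this order of ages unless it says otherwise.

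Lymphoid tissue organizer cells are mesenchymal cells of the lymph node anlage. In the embryo they receive lymphotoxin from lymphoid tissue inducer cells through the lymphotoxin beta receptor, which activates NF-kB, and they answer with adhesion molecules and homeostatic chemokines that hold further blood cells in the anlage. In the adult node, reticular cells below the capsule share part of this gene set, among it CXCL13, MAdCAM-1 and RANKL. Of the genes in the rule, Cxcl13 encodes the chemokine that draws B cells through CXCR5. Madcam1 encodes an adhesion molecule bound by integrin alpha4 beta7 and is also made by venular endothelium. Tnfsf11 encodes RANKL, a cytokine of the TNF family, and Pthlh encodes parathyroid hormone-related protein (PTHrP).

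The promoters of these genes are printed because the members are defined by their joint detection. Each window runs from 250 bases before to 50 bases from the transcription start of the RefSeq model on GRCm38.p6, written 5′ to 3′ along the strand of the gene. Cxcl13 lies at chr5:95956689-95956988 (plus strand), Madcam1 at chr10:79664309-79664608 (plus strand), Tnfsf11 at chr14:78307994-78308293 (minus strand) and Pthlh at chr6:147263964-147264263 (minus strand). Capitals mark matches on either strand to GGGNNNNNCC, the loose form of an NF-kB site, and to TATAAA, the TATA box.
Cxcl13: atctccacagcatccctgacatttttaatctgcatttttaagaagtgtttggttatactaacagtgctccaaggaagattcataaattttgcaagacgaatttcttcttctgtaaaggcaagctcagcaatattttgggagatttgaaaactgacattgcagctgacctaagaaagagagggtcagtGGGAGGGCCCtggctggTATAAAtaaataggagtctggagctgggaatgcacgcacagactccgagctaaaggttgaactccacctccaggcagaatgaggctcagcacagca
Madcam1: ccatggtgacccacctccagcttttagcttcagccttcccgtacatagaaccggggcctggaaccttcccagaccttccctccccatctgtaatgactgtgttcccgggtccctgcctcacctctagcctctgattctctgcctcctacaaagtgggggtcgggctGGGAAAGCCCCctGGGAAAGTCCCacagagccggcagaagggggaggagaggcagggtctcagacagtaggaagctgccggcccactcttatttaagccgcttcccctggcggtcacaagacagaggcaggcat
Tnfsf11: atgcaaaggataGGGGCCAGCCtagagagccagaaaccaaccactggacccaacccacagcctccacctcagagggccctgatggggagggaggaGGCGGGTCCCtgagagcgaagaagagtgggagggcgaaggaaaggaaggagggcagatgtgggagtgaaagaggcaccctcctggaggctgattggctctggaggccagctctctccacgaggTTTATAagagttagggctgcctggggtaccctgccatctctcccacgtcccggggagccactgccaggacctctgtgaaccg
Pthlh: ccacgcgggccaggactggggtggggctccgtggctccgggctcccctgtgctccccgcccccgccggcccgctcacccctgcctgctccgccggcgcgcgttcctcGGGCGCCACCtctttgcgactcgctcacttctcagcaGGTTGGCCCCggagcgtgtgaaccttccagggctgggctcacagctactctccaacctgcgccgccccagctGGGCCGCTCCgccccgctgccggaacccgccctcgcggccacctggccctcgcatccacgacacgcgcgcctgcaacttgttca
GGGNNNNNCC occurred in all 4 windows, but also in 16686 of 32851 RefSeq promoter windows of this length (50.8%). In Cxcl13 the match GGGAGGGCCC began at -63 and read as a match on both strands. Madcam1 had GGGAAAGCCC at -84, which matched on both strands and overlapped a second match at -83, and a second overlapping pair at -71 and -70. Tnfsf11 had matches at -238 and -155, and Pthlh at -143, -106 and -34. TATAAA, found in 13.6% of all windows, occurred at -46 in Cxcl13 and, on the other strand, at -32 in Tnfsf11. A search for GAAANNGAAA, an interferon response type motif held by 3.44% of windows, and for TCCCNNGGGA, held by 0.904%, gave no match in these 4 windows. These are matches of letters, and binding was not measured.

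LTo-like cells were most frequent among SCs at D10 and least frequent at D300. They made up 12.0% of SCs at D0 (378 of 3144, exact binomial 95% interval 10.9 to 13.2), 28.0% at D10 (401 of 1432, 25.7 to 30.4), 8.83% at D24 (88 of 997, 7.14 to 10.8), 9.60% at D56 (234 of 2438, 8.46 to 10.8) and 5.84% at D300 (54 of 924, 4.42 to 7.56). The interval at D10 lay above those of all other ages, and the interval of D24 overlapped those of D56 and of D300. The shares were not tested between ages, each of which was 1 pool, and all intervals on shares and counts cover counting error only. D10 stayed the highest and D300 the lowest age when cells were first thinned to 2000 UMIs each, which gave 5.10, 8.68, 3.00, 2.19 and 1.49%, although the interval of D300 (0.716 to 2.72%) then overlapped those of D24 and D56. The same held with at least 3 of the 4 genes required, which gave 7.44, 10.7, 2.21, 1.80 and 0.325%. The other SCs in the denominator were not alike across ages. Mfap4, a marker of adjacent-tissue cells, was detected in 90.9, 62.6, 41.0, 7.80 and 3.22% of them. In LTo-like cells it was detected in 79.6, 63.8, 22.7, 8.12 and 1.85%. The study excluded adjacent-tissue cells as over-represented around birth, but no alternative here left them out of the shares. Their part in the shares was not tested.

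**Figure D1:**
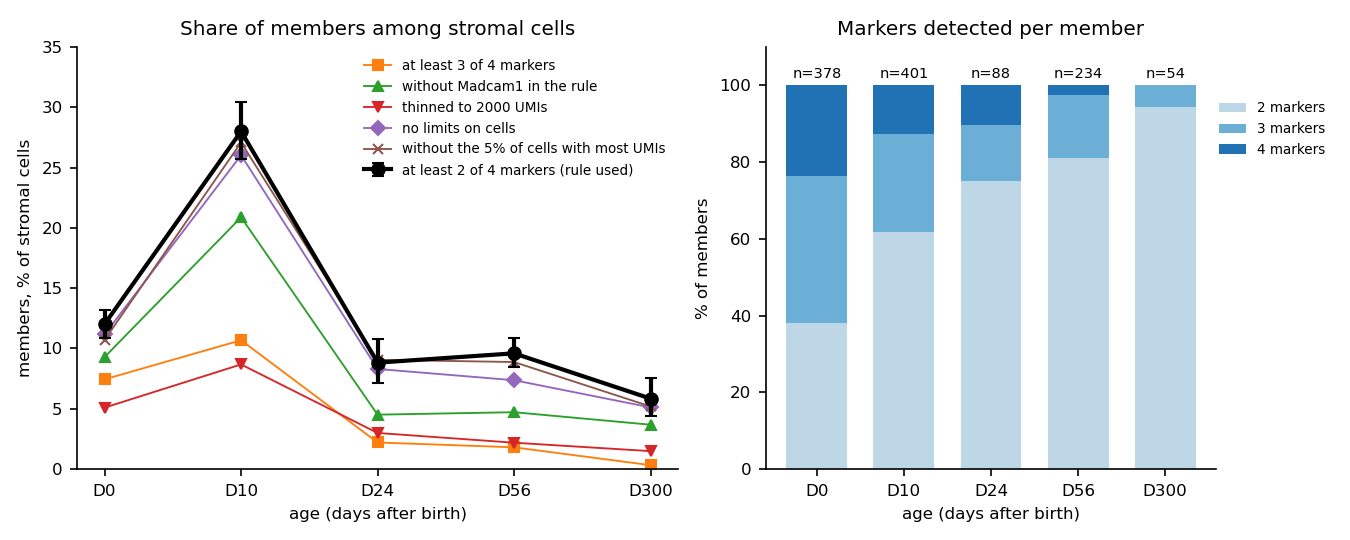
Left, LTo-like cells as a percentage of SCs (y axis) at each age (x axis), with exact binomial 95% intervals for the rule used and lines for 5 alternative rules or limits. Right, the percentage of LTo-like cells with 2, 3 or 4 of the marker genes detected, with the number of cells above each bar. The share was highest at D10 (28.0%) and lowest at D300 (5.84%), and the share of cells with 3 or 4 markers fell from 61.9% to 5.56%.

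The number of marker genes detected per cell went down with age. LTo-like cells with 3 or 4 of the genes were 61.9, 38.2, 25, 18.8 and 5.56% of the total. All 4 genes were detected in 89, 51, 9, 6 and 0 cells, and the count of 0 among 54 cells allows a share of up to 5.56%. Depth moved with age as well, since the median UMI count of LTo-like cells was 9622, 8016, 7611, 7589 and 6298, against 7222.5, 6946, 7142, 6191 and 4793 in the other SCs. At an equal 2000 UMIs per cell, the cells that met the rule had 3 or 4 genes in 33.7, 22.3, 12.9, 16 and 0% of cases (56 of 166, 29 of 130, 4 of 31, 8 of 50 and 0 of 10 cells). Of these cells 162, 122, 29, 46 and 10 had also met it at full depth. From D0 to D56 the share was lower than at full depth, and among these ages it was again highest at D0. The 0 of 10 cells at D300 allows a share of up to 30.0% and cannot be ordered against the other ages or against full depth.

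Which genes were found together also changed. At D0 the most common pattern was all 4 genes (89 cells, 23.5% of LTo-like cells). At D10 it was Cxcl13 with Tnfsf11 (80 cells, 19.95%), at D24 Madcam1 with Tnfsf11 (26 cells, 29.5%), at D56 Madcam1 with Pthlh (52 cells, 22.2%) and at D300 Tnfsf11 with Pthlh (23 cells, 42.6%). No pattern was the most common at more than 1 age. At D56, however, Madcam1 with Tnfsf11 (50 cells) and Tnfsf11 with Pthlh (47 cells) were nearly as common, with overlapping intervals. The next cells outside the rule, SCs with exactly 1 of the genes, numbered 466, 482, 291, 699 and 256, against 144, 248, 66, 190 and 51 LTo-like cells with exactly 2.

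The level of each marker is given in CPM, the usual scale for UMIs of a gene relative to the UMIs of all genes, over all LTo-like cells of an age added up. It is a description, since these genes chose the cells. Cxcl13 was at 599, 529, 405, 344 and 110.3 CPM in LTo-like cells and was detected in 69.8, 56.6, 36.4, 29.9 and 22.2% of them. Single cells weighed heavily from D24 on, since 1 LTo-like cell held 140 of 288 Cxcl13 UMIs at D24, 293 of 645 at D56 and 23 of 40 at D300. Without that cell the levels were 210.0, 189 and 48.0 CPM, and the level was lower at each later age either way. The other SCs held 12.1, 21.4, 4.78, 4.10 and 24.1 CPM, with 15.5 CPM at D300 without 1 cell. Tnfsf11 was at 248, 251, 208, 176 and 209.6 CPM in LTo-like cells and at 5.53, 102, 26.4, 29.7 and 59.3 CPM in the other SCs. It was detected in 65.8% or more of LTo-like cells at every age and was the marker found in the largest share of all SCs at D10, with 42.7%. Madcam1 was at 274, 129, 178, 232 and 119 CPM and at 11.3, 15.1, 23.9, 35.6 and 24.6 CPM in the 2 classes. Pthlh was at 131, 106, 95.5, 121 and 154 CPM in LTo-like cells and at 4.67, 10.7, 15.9, 12.5 and 5.91 CPM in the other SCs, and at D300 it had its highest level in LTo-like cells. Without 1 cell with 48 UMIs the other SCs held 8.99 CPM of Pthlh at D24.

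Endothelial cells (Pecam1 and Cdh5 detected, Col1a2 not) are given for comparison, as cells where stromal RNA would be free RNA. Leaving out cells with Col1a2 selects those with little free stromal RNA, so these shares can be too low as a background. At D0 the class held 61 cells, beside 564 Pecam1-positive cells in all. Cxcl13 reached 7.69, 6.37, 3.12, 1.87 and 1.41 CPM there and was detected in 4.92, 4.43, 1.74, 0.949 and 0.676% of the cells, and Tnfsf11 in 1.64, 1.97, 0.581, 0.569 and 2.48%, at median depths of 5743, 6035, 5773, 4564 and 4046 UMIs. Madcam1, which venular endothelium expresses, stood at 382, 586, 899.8, 383 and 683 CPM, above LTo-like cells at every age. Pthlh was at 38.4, 13.4, 29.0, 23.5 and 2.83 CPM in endothelial cells and was detected in 18.0, 6.40, 6.40, 6.83 and 0.901% of them, against 2.78, 4.27, 5.61, 5.22 and 2.07% of the other SCs. From D0 to D56 the level and the share were higher in endothelial cells than in the other SCs, with intervals of the share apart at D0 only. At least 2 of the 4 genes were detected in 6.56, 5.42, 2.62, 3.98 and 1.35% of endothelial cells (4 of 61, 11 of 203, 9 of 344, 21 of 527 and 6 of 444). These shares were below those of LTo-like cells among SCs at every age, with overlapping intervals at D0 only.

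Whether the markers marked a common set of cells was described by the share of SCs with a second marker among those with and without a first. At D0 Tnfsf11 was detected in 47.4% of SCs with Cxcl13 and in 6.24% of SCs without it. At D10 the shares were 59.5% and 38.3%, at D24 48.2% and 14.9%, at D56 35.6% and 15.2%, and at D300 20% (7 of 35) and 20.02%. Madcam1 was found in 48.6% of SCs with Cxcl13 and in 9.25% of those without at D0, and in 11.4% (4 of 35) and 10.0% at D300. For Madcam1 and Tnfsf11 the shares with and without the first were 49.3% and 5.36% at D0 and 12.9% and 20.8% at D300. Detection of Cxcl13, Madcam1 and Tnfsf11 was thus joined at D0 and no longer visibly joined at D300, where the intervals overlapped. Tnfsf11 and Pthlh kept an association. Pthlh was found in 45.0% of SCs with Tnfsf11 and 4.83% of SCs without at D0, and still in 13.0% (8.49 to 18.7) and 4.06% (2.76 to 5.75) at D300. From D0 to D56 the cells with Cxcl13 held each of the other 3 markers more often than the cells without, with overlapping intervals for Pthlh at D24 (10.2 to 32.4% against 6.89 to 10.6%). At D300 all 3 intervals overlapped. These genes chose the cells, so the shares describe the rule and are no check of the label, and "LTo-like cells" stands for SCs that met the rule.

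**Figure D2:**
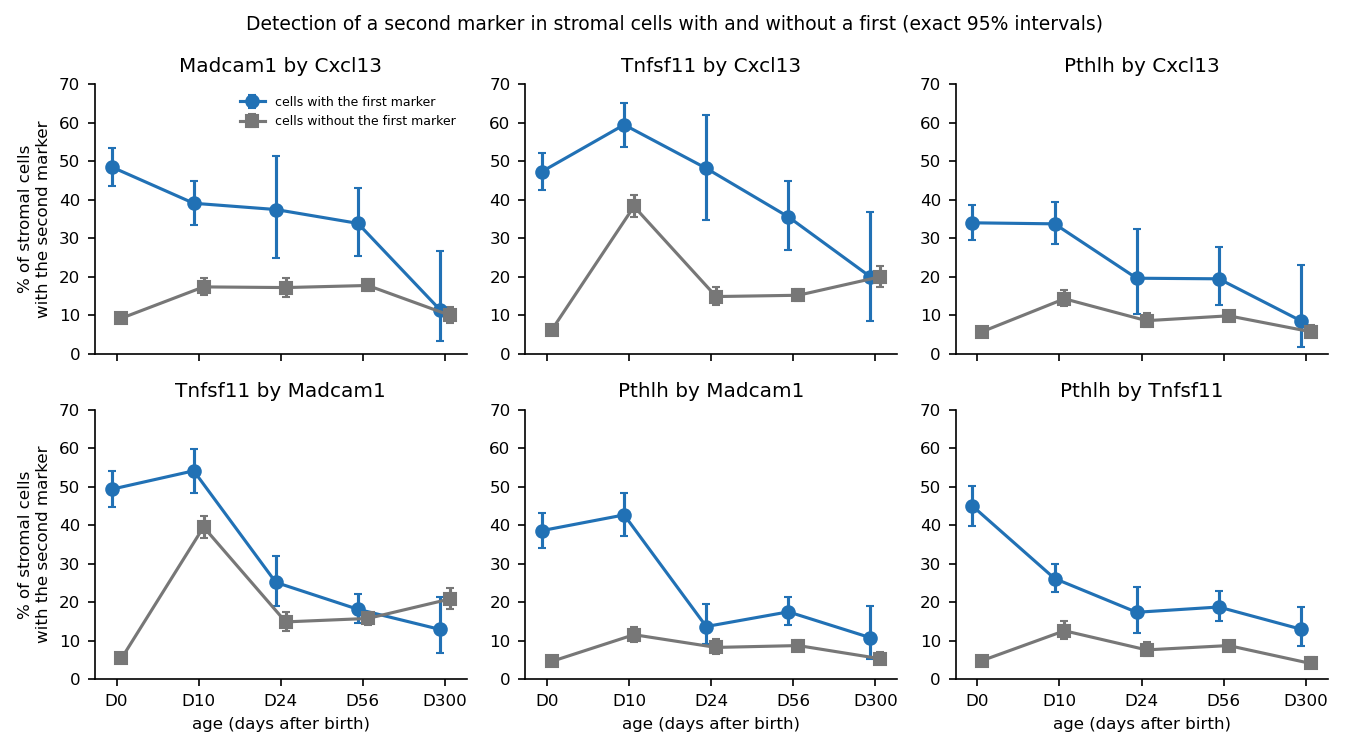
Percentage of SCs with a second marker (y axis) among cells with a first marker (blue circles) and without it (grey squares) at each age (x axis), for the 6 pairs of markers, with exact binomial 95% intervals. The gap was widest at D0 in every pair and closed by D300 for Cxcl13 with Tnfsf11, while Pthlh remained more frequent in cells with Tnfsf11 (13.0% against 4.06%).

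Levels of some genes outside the rule went with the number of markers at D0, the only age given here, and depth was not held equal. At D0, SCs with 0, 1, 2 and 3 or 4 markers held 98.0, 654, 2726 and 3482 CPM of Ccl19, the chemokine that attracts T cells and dendritic cells through CCR7. Mfge8, whose product binds phosphatidylserine on dying cells, was at 313, 991, 4444 and 6557 CPM, and Clu, the secreted chaperone clusterin, at 151, 366, 1707 and 3203 CPM in the same 4 groups. Enpp2, which encodes autotaxin, was at 39.8, 143, 740.1 and 1219 CPM. These levels rose with each added marker, and cells with a single marker lay nearer to those without any. Cd34 ran the other way, at 624, 543, 172 and 56.4 CPM.

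LTo-like cells were themselves a mixture with respect to reticular and CD34+ SC markers. At least 5 UMIs of Ccl19 were found in 70.6, 58.9, 43.2, 57.3 and 44.4% of them, against 2.31, 23, 15.3, 27.6 and 20.8% of the other SCs. Cd34 was detected in 43.4, 27.4, 40.9, 41.0 and 35.2% of LTo-like cells and in 85.4, 57.1, 69.5, 65.1 and 34.4% of the others. The share with Cd34 was thus lower in LTo-like cells from D0 to D56 and about the same at D300. LTo-like cells were also divided by detection of Cxcl13. Those without it had to hold 2 of the other 3 markers, so the values of both sets are a description. Ccl19 was at 2637, 2336, 1233, 1787 and 540.3 CPM in those with Cxcl13 and at 4531, 3093, 1284, 5738 and 1611 CPM in those without, lower with Cxcl13 at 4 ages and with overlapping exact Poisson intervals at D24 (1097 to 1382 and 1184 to 1391 CPM). Enpp2 was at 1166, 1738, 3233, 3669.8 and 2857 CPM with Cxcl13 and at 788, 1135, 1920.1, 2359 and 2564 CPM without, higher with Cxcl13 at 4 ages and with overlapping intervals at D300 (2506 to 3244 and 2379 to 2759 CPM).

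Most markers of other cell types were low in LTo-like cells. The summed level of 11 blood cell genes was 13.6, 5.28, 9.83, 16.6 and 57.9 CPM, and Ptprc, which encodes CD45, was detected in 1 LTo-like cell, at D300. The 10 endothelial genes other than Pecam1 summed to 80.5, 79.8, 98.3, 112 and 77.2 CPM and 6 Schwann cell genes to 7.06, 5.28, 8.43, 8.54 and 16.5 CPM. Red cell genes stood at 8.36, 2.05, 9.83, 2.67 and 69.0 CPM. The 6 mesothelial genes summed to 79.4, 19.1, 103, 51.8 and 168 CPM in LTo-like cells and to 306, 211, 668, 149 and 77.8 CPM in the other SCs, and in LTo-like cells at D300 the Krt19 part of this, 69.0 CPM, came from 1 cell. Perivascular genes summed to 1405, 1997, 2940.2, 2014 and 1007 CPM in LTo-like cells and to 1363, 2032, 1124, 1009.8 and 799 CPM in the other SCs, close at D0 and D10 and higher in LTo-like cells at the later ages. Pancreatic acinar genes, which belong to none of these cells, reached 787 and 882 CPM at D0 and D24 in LTo-like cells and 5491 and 884 CPM in the other SCs. Doublets were not removed, and 14.6, 6.23, 2.27, 12.8 and 14.8% of LTo-like cells were among the 5% of cells of their age with most UMIs, against 2.68, 1.84, 5.06, 4.99 and 3.45% of the other SCs. Without these cells LTo-like cells were 10.7% of SCs at D0 in place of 12.0%. The part of acinar RNA in the results was not tested.

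For tests, counts were added up per class and age and the 2 classes were compared across the 5 ages in 1 fit with age as a block (edgeR quasi-likelihood test, Benjamini-Hochberg adjusted p). The classes were formed from counts of the same cells, so the numbers of genes called are no independent evidence of a separate cell type, and p-values measure the spread between these 5 pools. Fold changes are fitted log2 values ± SE with n = 5 ages, a gene was called at an adjusted p under 0.05, and a second p given "without" an age comes from the fit with that age left out. Compared with the other SCs, 674 of 11295 tested genes were higher in LTo-like cells (5.97%) and 929 were lower (8.22%). The 4 marker genes were left out of the test. Without D10 the calls fell from 1603 in all to 883 and without D56 to 983. They were 1458 without the 5% of cells with most UMIs and 1450 when other SCs with Mfap4 or Rgs5, markers of adjacent-tissue and perivascular cells, were left out.

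**Figure D3:**
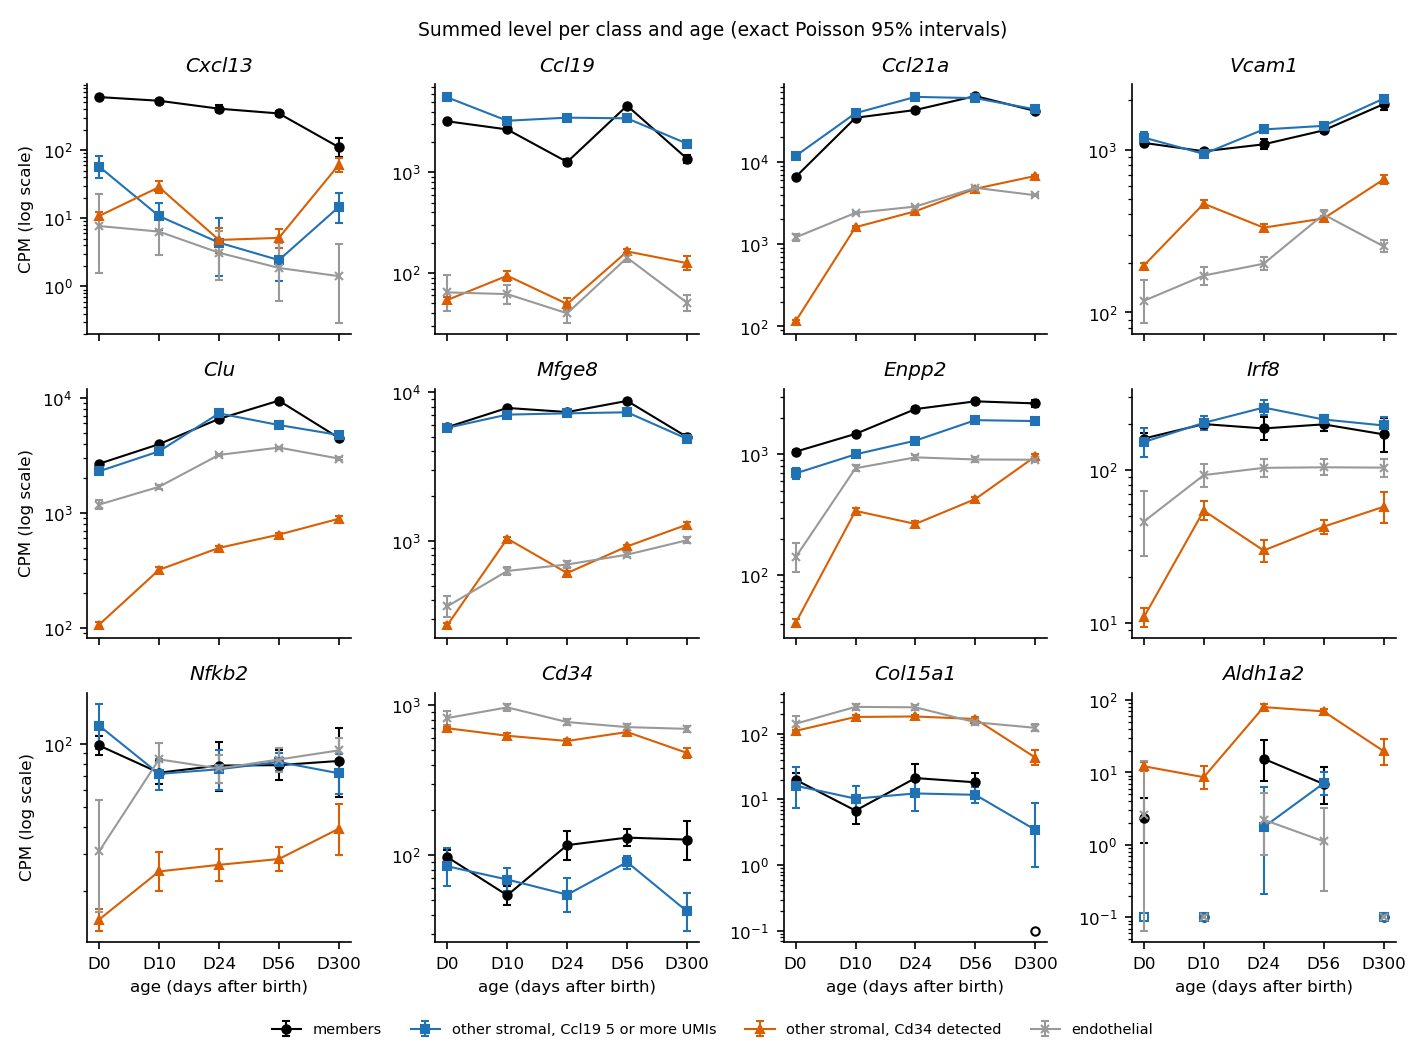
Summed level in CPM (y axis, log scale) at each age (x axis) of 12 genes in LTo-like cells (black circles), other SCs with at least 5 Ccl19 UMIs (blue squares), other SCs with Cd34 (orange triangles) and endothelial cells (grey crosses), with exact Poisson 95% intervals and open symbols at the bottom for a count of 0. LTo-like cells lie close to the Ccl19-positive cells for Ccl21a, Vcam1, Clu and Mfge8 and far above the Cd34-positive cells, and the order is the opposite for Cd34 and Col15a1.

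Genes that textbook accounts give for organizer cells were higher in LTo-like cells in 4 cases, lower in 1 and not called in 6 of 11 tested. The median log2 fold change of the 11 was 0.37, against 0.01 over all genes tested. Ccl19 stood at 3216, 2668, 1267, 4598 and 1365 CPM in LTo-like cells and at 202, 955, 631, 1214 and 667 CPM in the other SCs, higher at all 5 ages (log2 fold change 1.90 ± 0.39 (SE), adjusted p = 0.0114). Ccl21a, the other ligand of CCR7, was at 6528, 34189, 42520.5, 62734 and 41314 CPM against 437, 11936, 13291, 23989 and 22206 CPM, lowest in both classes at D0 (log2 fold change 1.88 ± 0.40 (SE), adjusted p = 0.0122). The call for Ccl21a was lost without D24 (adjusted p = 0.0527), and its reads may include those of near-identical Ccl21 copies. Vcam1, the adhesion molecule for integrin alpha4 beta1, was at 1098, 975, 1076, 1311 and 1898 CPM against 232, 663, 588, 809 and 1404 CPM (log2 fold change 1.01 ± 0.24 (SE), adjusted p = 0.022), and missed the threshold without D10 (adjusted p = 0.0517), D24 (0.0769) or D56 (0.0586). Il7, the survival cytokine of lymphocytes, was at 21.2, 91.5, 63.2, 99.9 and 82.7 CPM against 4.76, 81.2, 39.5, 45.7 and 56.2 CPM (log2 fold change 0.97 ± 0.24 (SE), adjusted p = 0.0253). It missed the threshold without D24 (adjusted p = 0.0697) or D56 (0.103), and after thinning its log2 fold change was -0.35. Pdgfra, a growth factor receptor of mesenchymal cells, was the gene that was lower, at 64.3, 69.8, 61.8, 96.1 and 116 CPM against 93.7, 106, 142, 154 and 157 CPM (log2 fold change -0.61 ± 0.11 (SE), adjusted p = 0.00687). The lymphotoxin beta receptor Ltbr itself, at 36.8, 52.5, 40.7, 34.2 and 33.1 CPM in LTo-like cells and 34.1, 57.6, 53.0, 41.7 and 25.2 CPM in the others, was not called (log2 fold change -0.03 ± 0.12 (SE), adjusted p = 0.973). Icam1 was at 581, 217, 285, 423 and 1346 CPM against 203, 172, 300.2, 357 and 1069.8 CPM and also passed no threshold (log2 fold change 0.53 ± 0.20 (SE), adjusted p = 0.117). The homeobox gene Nkx2-3 was at 108, 121, 92.7, 111 and 57.9 CPM against 72.7, 109.6, 61.8, 88.2 and 75.5 CPM (log2 fold change 0.37 ± 0.14 (SE), adjusted p = 0.115) and was called only without D300 (adjusted p = 0.0294).

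Downstream of these receptors, 5 of 17 genes of lymphotoxin, TNF receptor and NF-kB signalling were higher and none was lower, with a median log2 fold change of 0.36. Nfkb2, the precursor of the p52 subunit of the alternative pathway, was at 98.0, 72.8, 78.7, 79.0 and 82.7 CPM in LTo-like cells and 17.8, 42.3, 39.0, 50.3 and 58.0 CPM in the other SCs (log2 fold change 1.20 ± 0.27 (SE), adjusted p = 0.0151). The level in LTo-like cells stayed between 72.8 and 98.0 CPM, and that of the others was lowest at D0. Relb, its partner, was at 93.3, 72.8, 70.2, 98.8 and 124 CPM against 33.8, 48.7, 51.3, 73.7 and 95.9 CPM (log2 fold change 0.75 ± 0.17 (SE), adjusted p = 0.0161). Map3k14, the kinase NIK that triggers p52 processing, was at 11.8, 29.9, 29.5, 27.8 and 27.6 CPM against 11.5, 16.5, 11.6, 18.1 and 24.3 CPM (log2 fold change 0.67 ± 0.19 (SE), adjusted p = 0.0408). The TNF receptor Tnfrsf1b was at 14.9, 31.4, 33.7, 27.2 and 35.9 CPM against 4.09, 19.9, 22.4, 21.3 and 18.0 CPM (log2 fold change 0.93 ± 0.22 (SE), adjusted p = 0.0185). The call for Nfkb2 was lost without D24 (adjusted p = 0.0545), that for Relb without D10 (adjusted p = 0.0599), that for Map3k14 without D10 (adjusted p = 0.192), D24 (0.109) or D56 (0.122) and that for Tnfrsf1b without D10 (adjusted p = 0.0562). Nfkb1, the precursor of p50 in the classical pathway, was at 41.6, 32, 73.0, 64.6 and 74.5 CPM against 43.4, 36.4, 79.3, 114 and 142 CPM and was not called (log2 fold change -0.33 ± 0.15 (SE), adjusted p = 0.189), although without D0 it was lower (adjusted p = 0.0492).

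The partners of RANKL and PTHrP gave a lower and an uncalled gene. Tnfrsf11b encodes osteoprotegerin, the soluble decoy that binds RANKL. It was at 6.27, 0.880, 9.83, 16.6 and 5.52 CPM in LTo-like cells against 30.8, 27.2, 97.9, 32.9 and 7.50 CPM in the other SCs, lower at all 5 ages (log2 fold change -2.28 ± 0.40 (SE), adjusted p = 0.00521). Pth1r, the receptor for PTHrP, was at 31.9, 35.8, 22.5, 15 and 16.5 CPM against 54.1, 39.9, 33.0, 18.9 and 14.8 CPM (log2 fold change -0.34 ± 0.14 (SE), adjusted p = 0.147). Tnfrsf11a, which encodes the receptor RANK, was too low to be tested.

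Of 18 chemokine and cytokine genes of reticular cells, 7 were higher and 1 was lower, with a median of 0.57. Besides Ccl19, Ccl21a and Il7 these included Flt3l, a growth factor of dendritic cells, at 16.2, 66.6, 98.3, 129 and 146 CPM against 7.94, 39.2, 35.8, 84.2 and 106 CPM (log2 fold change 0.91 ± 0.15 (SE), adjusted p = 0.00359). Il33, an alarmin held in the nucleus, was at 560.3, 718, 490.3, 485 and 350.3 CPM against 163, 350.0, 413, 308 and 241 CPM (log2 fold change 0.92 ± 0.20 (SE), adjusted p = 0.0138). Cxcl16, the ligand of CXCR6, was at 52.0, 102, 199, 225 and 157 CPM against 20.6, 88.6, 106, 154 and 139 CPM (log2 fold change 0.71 ± 0.17 (SE), adjusted p = 0.0222). Flt3l kept its call with each age left out, but Il33 lost it without D10 (adjusted p = 0.0671) and Cxcl16 without D24 (adjusted p = 0.0973) or D56 (0.0686). Il6 was the gene that was lower, at 74.2, 11.1, 194, 254 and 331 CPM against 82.3, 63.0, 409.9, 591 and 688 CPM (log2 fold change -1.07 ± 0.25 (SE), adjusted p = 0.0181), and this call was lost without D24 (adjusted p = 0.0621), D56 (0.0699) or D300 (0.0536). Without 1 cell with 57 of 138 UMIs, Il6 was at 115 CPM in LTo-like cells at D24. Among T-zone reticular cell markers, 6 of 9 were higher (median 1.40), among them Ch25h, the enzyme that makes 25-hydroxycholesterol. It was at 12.3, 46.4, 14, 15 and 35.9 CPM against 4.19, 7.41, 9.12, 11.8 and 12.7 CPM (log2 fold change 1.50 ± 0.32 (SE), adjusted p = 0.0117).

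Genes shared with follicular dendritic and marginal reticular cells gave 4 higher genes of 8 tested and a median of 1.21. Clu was at 2677, 3961, 6574, 9472 and 4490.3 CPM in LTo-like cells and 191, 1194, 1750.0, 2514 and 2361 CPM in the other SCs (log2 fold change 2.09 ± 0.35 (SE), adjusted p = 0.00426). Mfge8 was at 5814, 7832, 7348, 8735 and 4995 CPM against 440.2, 2931, 2006, 3335 and 2715 CPM (log2 fold change 1.88 ± 0.36 (SE), adjusted p = 0.0082). Both were higher in LTo-like cells at all 5 ages, with the lowest level of the other SCs at D0. Enpp2 was at 1050.3, 1473, 2363, 2737 and 2631 CPM against 59.0, 556, 583, 1112 and 1580.5 CPM (log2 fold change 1.92 ± 0.42 (SE), adjusted p = 0.0143), and Bst1, the ectoenzyme CD157, at 115, 119, 133, 290.5 and 143 CPM against 6.83, 33.5, 29.1, 95.3 and 90.7 CPM (log2 fold change 2.13 ± 0.39 (SE), adjusted p = 0.00626). The calls for Clu, Mfge8 and Bst1 held with each age left out, and that for Enpp2 was lost without D24 (adjusted p = 0.0651). The defining genes of mature follicular dendritic cells Cr2, Fcer2a and Fcgr2b, and Coch, were too low to be tested.

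Antigen presentation genes were higher in 4 of 14 cases (median 0.66) and complement genes higher in 2 and lower in 1 of 10 (median 0.44). Cd74, the invariant chain of MHC class II, was at 229, 352, 516, 652 and 1123 CPM against 26.9, 249, 302, 205 and 431 CPM (log2 fold change 1.52 ± 0.32 (SE), adjusted p = 0.0116), a call lost without D56 (adjusted p = 0.0522). H2-Ab1, a class II beta chain, was at 108, 166, 124, 165 and 251 CPM against 18.9, 133, 103, 85.1 and 143 CPM (log2 fold change 1.03 ± 0.29 (SE), adjusted p = 0.0404) and lost its call without D10 (adjusted p = 0.0568), D24 (0.0607), D56 (0.115) or D300 (0.0806). Of 7 interferon regulatory factors 2 were higher. Irf8 was at 160.5, 199, 187, 199 and 171 CPM against 16.5, 108, 81.2, 110.5 and 146 CPM (log2 fold change 1.35 ± 0.36 (SE), adjusted p = 0.0356) and Irf5 at 9.93, 7.92, 8.43, 7.48 and 5.52 CPM against 2.98, 4.94, 5.07, 3.82 and 7.73 CPM (log2 fold change 1.05 ± 0.28 (SE), adjusted p = 0.0345). Irf8 varied little in LTo-like cells, between 160.5 and 199 CPM, but its call was lost without D10 (adjusted p = 0.0822), D24 (0.106) or D56 (0.0762), and that of Irf5 without D0 (adjusted p = 0.144), D10 (0.0999), D24 (0.0762) or D56 (0.102). Of 13 interferon-induced genes 1 was higher and 4 were lower.

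Lower in LTo-like cells were above all CD34+ SC markers and matrix genes. All 12 CD34+ SC markers tested were lower, with a median log2 fold change of -1.97. Cd34 was at 97.0, 54.0, 117, 131 and 127 CPM against 608, 327, 408, 394 and 155 CPM (log2 fold change -1.82 ± 0.27 (SE), adjusted p = 0.00253). Pi16, a marker of adventitial fibroblasts, was at 38.2, 8.21, 142, 342 and 331 CPM against 293, 237, 642, 864 and 321 CPM (log2 fold change -2.07 ± 0.52 (SE), adjusted p = 0.0256), and Dpt, which encodes the matrix protein dermatopontin, at 133, 235, 673, 592 and 659 CPM against 755, 835, 1194, 1142 and 736 CPM (log2 fold change -1.19 ± 0.28 (SE), adjusted p = 0.0176). At D300 1 LTo-like cell held 86 of 120 Pi16 UMIs, and without it the level was 95.7 CPM. The call for Pi16 was lost without D24 (adjusted p = 0.091) or D56 (0.0537), that of Dpt without D10 (adjusted p = 0.0771). Of 25 extracellular matrix genes 17 were lower and none was higher (median -0.71). Fbn1, which encodes fibrillin-1, was at 76.0, 74.8, 155, 129.8 and 57.9 CPM against 331, 300.3, 617, 359.7 and 78.0 CPM (log2 fold change -1.66 ± 0.19 (SE), adjusted p = 0.000576). Col3a1 was at 3129, 6610.3, 4778, 1386 and 458 CPM against 9848, 11358, 9124, 2538 and 485 CPM (log2 fold change -0.82 ± 0.19 (SE), adjusted p = 0.0192, and 0.0645 without D10, 0.07 without D24 and 0.0727 without D56). Col1a1 was at 3238, 4306, 2543, 803 and 301 CPM against 7776, 6013, 3267, 1054 and 284 CPM and was not called (log2 fold change -0.43 ± 0.17 (SE), adjusted p = 0.128).

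Of 10 retinoic acid genes 5 were lower, 1 was higher and 4 were not called (median -0.88). Aldh1a2, a retinaldehyde dehydrogenase, was at 2.35, 0, 15.5, 6.94 and 0 CPM against 11.2, 4.25, 58.4, 42.6 and 7.73 CPM (log2 fold change -2.39 ± 0.29 (SE), adjusted p = 0.000874). A count of 0 in LTo-like cells allows a level of up to 0.784, 0.880, 4.21, 1.60 and 8.27 CPM in the order of ages. Aldh1a1 was at 6.79, 1.76, 16.9, 9.08 and 13.8 CPM against 46.3, 20.6, 38.1, 30.9 and 23.2 CPM (log2 fold change -2.13 ± 0.30 (SE), adjusted p = 0.0018). BMP, Wnt and TGF-beta genes went both ways, 4 higher and 7 lower of 19. The BMP antagonist Grem1 was at 123, 225, 309, 224 and 116 CPM against 15.3, 128, 117, 102 and 100.3 CPM (log2 fold change 1.40 ± 0.32 (SE), adjusted p = 0.0174, and 0.0733 without D24 and 0.0572 without D56) and the ligand Bmp2 at 38.2, 25.8, 37.9, 83.8 and 55.2 CPM against 13.9, 11.8, 23.7, 46.3 and 73.0 CPM (log2 fold change 0.90 ± 0.22 (SE), adjusted p = 0.0237, and 0.11 without D10, 0.0677 without D24 and 0.0927 without D56). The Wnt modulator Sfrp2 was lower, at 35.5, 10.6, 53.4, 39.5 and 44.1 CPM against 173, 75.0, 224, 112 and 57.8 CPM (log2 fold change -1.89 ± 0.24 (SE), adjusted p = 0.00106).

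Among markers of neighbouring cells, 3 of 9 perivascular genes were higher, 4 of 8 endothelial, 4 of 6 mesothelial and 1 of 2 Schwann cell genes were lower, and neither blood cell gene tested was called. DESeq2 called 2 of the endothelial and 2 of the mesothelial genes. Des, which encodes the intermediate filament desmin, was at 650.5, 713, 854, 623 and 502 CPM against 101, 397, 289.9, 309 and 378 CPM (log2 fold change 1.36 ± 0.28 (SE), adjusted p = 0.0116, and 0.0587 without D24). All 4 markers of adjacent-tissue fibroblasts were lower, among them Mfap4, a microfibril protein, at 318, 378, 128, 24 and 2.76 CPM against 1829, 898, 297, 28.7 and 12.7 CPM (log2 fold change -1.34 ± 0.27 (SE), adjusted p = 0.0107). Of 12 immediate early and heat-shock genes 2 were lower. Their summed level was 26083, 13768, 22945, 33628 and 43899 CPM in LTo-like cells and 15862, 13438, 20479, 35122 and 44717 CPM in the other SCs, so it was higher in LTo-like cells at D0 and close at the later ages.

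**Figure D4:**
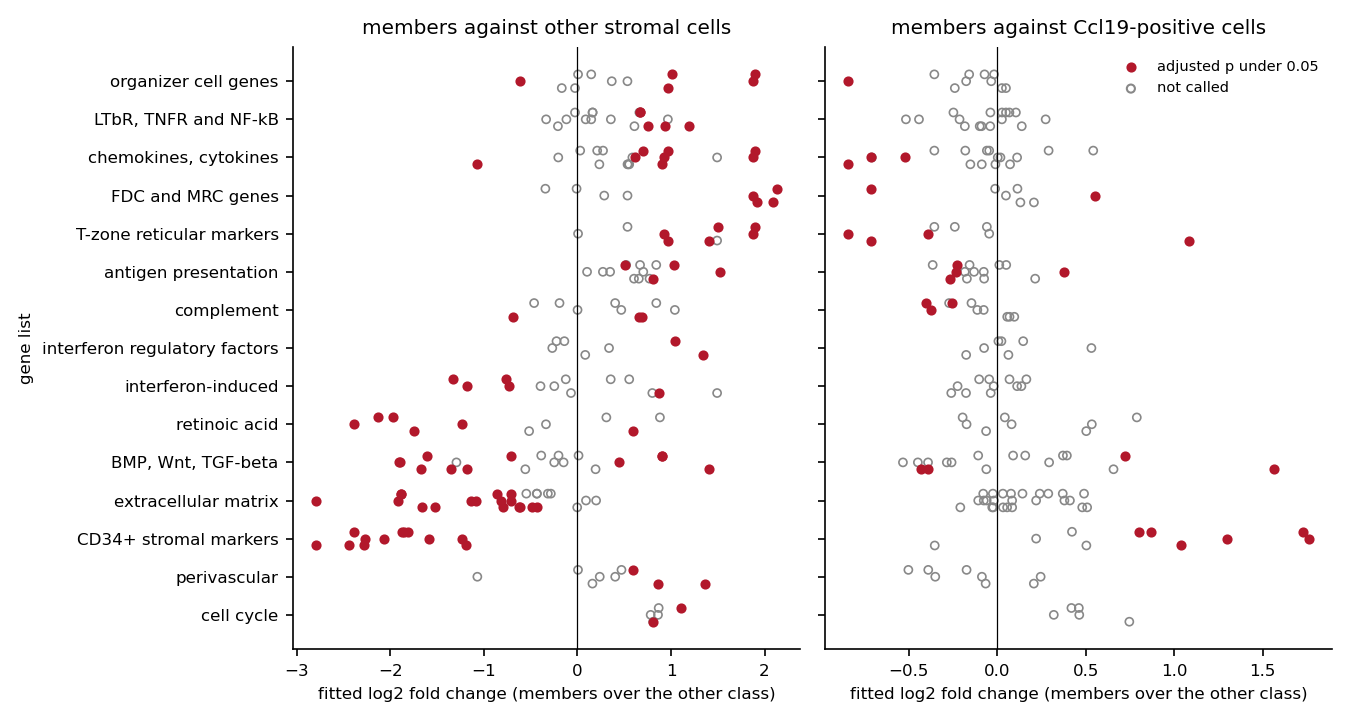
Fitted log2 fold change (x axis) of LTo-like cells over the other SCs (left) and over Ccl19-positive cells (right) for each tested gene of the gene lists (y axis), in red where the adjusted p was under 0.05 and open where it was not. Against the other SCs, all 12 CD34+ SC markers lie below 0 and 6 of 9 T-zone reticular cell markers were called higher.

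The genes with the largest differences among well expressed ones were Dsc2, Stc2, Spic, Lrat, Serpina10, Bst1, Serpina1b and Serpina1d on the higher side. Dsc2, which encodes the desmosomal cadherin desmocollin-2, was at 87.5, 58.4, 43.5, 64.1 and 30.3 CPM in LTo-like cells against 5.00, 17.6, 9.56, 23 and 9.55 CPM in the other SCs (log2 fold change 2.37 ± 0.38 (SE), adjusted p = 0.00324). Stc2, the secreted glycoprotein stanniocalcin-2, was at 107, 38.4, 32.3, 72.6 and 16.5 CPM against 5.77, 16.6, 9.56, 19.7 and 5.23 CPM (log2 fold change 2.35 ± 0.42 (SE), adjusted p = 0.00592). Lrat, the enzyme that stores retinol as its ester, was at 98.3, 84.8, 143, 150.1 and 52.4 CPM against 4.23, 32.8, 44.5, 36.7 and 25 CPM (log2 fold change 2.23 ± 0.42 (SE), adjusted p = 0.00763). Spic, an ETS family transcription factor, was at 60.9, 67.8, 49.2, 78.0 and 44.1 CPM against 1.92, 26.9, 9.56, 25.3 and 24.1 CPM (log2 fold change 2.26 ± 0.49 (SE), adjusted p = 0.0137), a call lost without D24 (adjusted p = 0.0556). Serpina10, a protease inhibitor, was at 101, 130.3, 166, 211 and 85.5 CPM against 3.18, 33.5, 40.3, 67.2 and 72.1 CPM (log2 fold change 2.22 ± 0.50 (SE), adjusted p = 0.0165), a call lost without D10 (adjusted p = 0.061), D24 (0.0649) or D56 (0.0506). Serpina1b and Serpina1d (log2 fold changes 2.10 and 2.09) belong to a family of near-identical copies and are uncertain. Of the 16 genes named by size 13 kept their call with each age left out. Nrk, on the lower side, was too low to be tested without D0 or D10, so its values are a description.

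On the lower side were Col15a1, Ebf2, Smpd3, Nrk, Agtr2, Krtdap, Penk and Nov, with log2 fold changes from -2.79 to -2.49. Col15a1, a basement membrane collagen, was at 19.9, 6.75, 21.1, 18.2 and 0 CPM against 104, 106, 139, 101 and 18.2 CPM (adjusted p = 0.000228). Penk, which encodes proenkephalin, was at 52.0, 13.5, 46.4, 71.6 and 55.2 CPM against 489, 134, 239.9, 319.7 and 149 CPM (adjusted p = 0.000262). Ebf2, a transcription factor of mesenchymal progenitors, was at 7.32, 1.76, 2.81, 21.9 and 16.5 CPM against 70.0, 33.7, 46.5, 87.5 and 33.2 CPM (adjusted p = 0.000653). All 3 were lower in LTo-like cells at every age. The values of Penk in LTo-like cells were 7.97, 29.9 and 28.1 CPM at D10, D24 and D300 without the cell with most UMIs. Nrk, a kinase, and Agtr2, the angiotensin II type 2 receptor, were at 0.534 and 0 CPM in LTo-like cells at D56, and at 1.32 and 1.60 CPM in the other SCs.

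Against Ccl19-positive cells, the 1230 other SCs with at least 5 Ccl19 UMIs (64, 237, 139, 609 and 181 by age), few genes differed. LTo-like cells had 36 higher genes of 8976 tested (0.401%) and 29 lower (0.323%), and scaling by library totals gave 37 and 13. Without D24 the calls fell to 39 in all and without D300 to 30. Ccl19 chose the cells of this class and was not tested. Clu was at 2302, 3431, 7334, 5812 and 4759 CPM in Ccl19-positive cells and Mfge8 at 5765, 7063, 7203, 7321 and 4858 CPM, with log2 fold changes of LTo-like cells of 0.13 ± 0.09, adjusted p = 0.82 and 0.05 ± 0.04, adjusted p = 0.901. Vcam1 (-0.16 ± 0.06, adjusted p = 0.369), Nfkb2 (-0.09 ± 0.09, adjusted p = 0.927), Irf8 (-0.18 ± 0.08, adjusted p = 0.636) and Bst1 (0.21 ± 0.10, adjusted p = 0.642) were not called either, although Bst1 was higher with at least 3 of 4 markers required (0.54, adjusted p = 0.00276). None of 16 lymphotoxin and NF-kB genes, 7 interferon regulatory factors and 25 matrix genes was called by edgeR or by DESeq2. At an unadjusted p under 0.05 in edgeR they numbered 3, 2 and 6.

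Among the genes that differed from the Ccl19-positive cells, T-zone reticular cell markers were lower in 3 and higher in 1 of 8 (median -0.30), and CD34+ SC markers were higher in 6 of 10 (median 0.84). DESeq2 called 2 genes of each of these lists. At least 5 Ccl19 UMIs were held by 43.2 to 70.6% of LTo-like cells but by all cells of the Ccl19-positive class. The direction of genes that go with Ccl19 can thus follow from this limit, so the counts of both lists are a description. Cxcl12, the ligand of CXCR4, was at 1086, 4464, 5278, 5854 and 7047 CPM in LTo-like cells against 1618, 6222, 6681, 9045 and 8989 CPM, lower at all 5 ages (log2 fold change -0.52 ± 0.05 (SE), adjusted p = 6.26e-05). Tnfsf13b, which encodes the B cell survival factor BAFF, was at 4.97, 23.8, 42.1, 86.5 and 113 CPM against 10.7, 31.3, 86.1, 134 and 175 CPM (log2 fold change -0.71 ± 0.11 (SE), adjusted p = 0.00651). Both calls held with each age left out. Il7 was at 52.0, 221, 165, 101 and 87.8 CPM in the Ccl19-positive cells (log2 fold change -0.84 ± 0.18 (SE), adjusted p = 0.037), with the gap at D0 to D24 and near equal levels at D56 and D300, and its call was lost without D0 (adjusted p = 0.109), D10 (0.354), D24 (0.119) or D300 (0.0687). Grem1 was at 158, 303, 424, 238 and 167 CPM there (log2 fold change -0.39 ± 0.08 (SE), adjusted p = 0.0232), a call lost without D0 (adjusted p = 0.0758), D10 (0.129), D24 (0.107) or D300 (0.0778) and with at least 3 of 4 markers required (log2 fold change 0.0065). Ccl21a was at 11738, 38876, 61307, 59164 and 43233 CPM in the Ccl19-positive cells (log2 fold change -0.36 ± 0.09 (SE), adjusted p = 0.0879) and was not called. It was called lower under 6 of 14 alternatives, namely without D56 (log2 fold change -0.45, adjusted p = 0.00752), after thinning to 2000 UMIs (-0.99, adjusted p = 0.000168), without Madcam1 in the rule (-0.54), without a filter on low counts (-0.37), without limits on cells (-0.34) and without the 5% of cells with most UMIs (-0.40). The complement genes C3 (-0.26 ± 0.04, adjusted p = 0.0103) and C4b (-0.38 ± 0.07, adjusted p = 0.0213) were lower as well (DESeq2 called 1 complement gene), and these calls were lost for C3 without D10 (adjusted p = 0.0633) and for C4b without D0 (adjusted p = 0.0744), D10 (0.0745), D24 (0.0734) or D300 (0.0699).

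Higher than in Ccl19-positive cells was Enpp2, at 1050.3, 1473, 2363, 2737 and 2631 CPM against 695, 998, 1297, 1914 and 1881 CPM, at all 5 ages and with each age left out (log2 fold change 0.55 ± 0.06 (SE), adjusted p = 0.000385). Ch25h was at 10.7, 16.9, 7.03, 8.41 and 13.8 CPM in the Ccl19-positive cells (log2 fold change 1.09 ± 0.19 (SE), adjusted p = 0.0173), lost without D10 (adjusted p = 0.328) or D300 (0.0687). Of 14 antigen presentation genes 1 was higher and 3 were lower by edgeR (median -0.14), and DESeq2 called 1. The higher one was Cd74, at 120.0, 304, 443, 489.8 and 760.0 CPM in the Ccl19-positive cells (log2 fold change 0.38 ± 0.08 (SE), adjusted p = 0.0437), lost without D0 (adjusted p = 0.0982), D10 (0.0546), D24 (0.057), D56 (0.0627) or D300 (0.192). Efemp1, a fibulin, was at 5.75, 8.51, 82.9, 166 and 188 CPM against 3.58, 3.59, 23.7, 82.1 and 56.8 CPM (log2 fold change 1.24 ± 0.14 (SE), adjusted p = 0.000788). Sfrp2 was at 17.9, 6.67, 12.3, 13.9 and 1.72 CPM in the Ccl19-positive cells (log2 fold change 1.56 ± 0.26 (SE), adjusted p = 0.0108), Ecm1 at 32.7, 20.8, 131, 164 and 149 CPM against 12.5, 18.0, 64.1, 90.9 and 68.0 CPM (log2 fold change 0.82 ± 0.12 (SE), adjusted p = 0.00426) and Ly6a, which encodes Sca-1, at 242, 78.6, 420.0, 498 and 422 CPM against 152, 63.6, 128, 292 and 244 CPM (log2 fold change 0.80 ± 0.13 (SE), adjusted p = 0.00945). These 4 kept their calls with each age left out, but with at least 3 of 4 markers required the log2 fold change of Sfrp2 was -0.0046 (adjusted p = 0.999). Pi16 (1.76 ± 0.34, adjusted p = 0.0221) and Sema3c (1.72 ± 0.30, adjusted p = 0.0148) lost theirs, Pi16 without D24 (adjusted p = 0.0734) or D300 (0.0867) and Sema3c without D24 (adjusted p = 0.0556) or D56 (0.0912). Of the 16 genes named by size in this comparison 6 kept their call with each age left out, on the lower side Mfap4 (-0.82 ± 0.10, adjusted p = 0.00155), Tnfsf13b and Cxcl12.

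From Cd34-positive cells, the 4892 other SCs with Cd34 and under 5 Ccl19 UMIs (2337, 505, 586, 1202 and 262 by age), LTo-like cells differed in many genes. They had 1024 higher genes of 10905 tested (9.39%) and 1370 lower (12.6%). Ccl19 and Cd34 set this class and were not tested. No cell of the class held 5 or more Ccl19 UMIs, while LTo-like cells could hold them and could lack Cd34. Directions of genes that go with Ccl19 or Cd34 can thus follow from these limits, and the list counts below are a description. Ccl21a was at 115, 1606, 2508, 4697 and 6722 CPM in Cd34-positive cells (log2 fold change 4.20 ± 0.41 (SE), adjusted p = 8.65e-05), Clu at 107, 320.2, 496, 647 and 889.9 CPM (log2 fold change 3.73 ± 0.29 (SE), adjusted p = 2.93e-05) and Mfge8 at 272, 1036, 609, 919 and 1287 CPM (log2 fold change 3.31 ± 0.31 (SE), adjusted p = 6.7e-05). Vcam1 was at 194, 465, 332, 377 and 655 CPM (log2 fold change 1.80 ± 0.19 (SE), adjusted p = 0.000124), Il7 at 3.51, 23.9, 10.2, 15.8 and 18.2 CPM (log2 fold change 2.48 ± 0.15 (SE), adjusted p = 1.54e-05) and Irf8 at 11, 54.4, 29.9, 42.7 and 57.6 CPM (log2 fold change 2.55 ± 0.29 (SE), adjusted p = 0.000192). All 6 were higher in LTo-like cells at every age. Chemokine and cytokine genes were higher in 12 of 17 (median 1.11), lymphotoxin and NF-kB genes in 8 of 17 (0.51), antigen presentation genes in 11 of 14 (1.06) and follicular dendritic and marginal reticular cell genes in 5 of 8 (2.07). All 11 CD34+ SC markers tested were lower (median -2.80), as were 21 of 25 matrix genes (-0.98).

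The Cd34-positive cells are among the other SCs, so both comparisons share cells. The genes named by size against the Cd34-positive cells were, on the higher side, Gm2564, Serpina10, Dsc2, Stc2, Serpina1d, Dsc3, Ccl21a and Lrat, with log2 fold changes between 4.09 and 4.67. Dsc3, which encodes desmocollin-3, was at 236, 269, 219, 259 and 57.9 CPM in LTo-like cells against 6.07, 25.8, 10.5, 15.2 and 9.10 CPM (log2 fold change 4.23 ± 0.30 (SE), adjusted p = 1.86e-05). Gm2564, a predicted protein-coding gene on chromosome 4 at 42629719 to 42631714 (mm10, GENCODE vM21), was at 25.9, 10.3, 5.62, 408 and 8.27 CPM, with its highest level at D56. On the lower side were Smpd3, Ebf2, Col15a1, Msln, Dmkn, Pdgfrl, Pcsk6 and Penk, from -3.42 to -3.15. All 16 kept their call with each age left out.

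Within LTo-like cells, age was tested as a slope on log2(day + 1) over the 5 pools. The slope is the fitted change in log2 level for each doubling of day + 1. The cells that met the rule were not alike across ages, since 61.9% of them at D0 and 5.56% at D300 had 3 or 4 markers. The study also names an earlier deposit for data of D56. The part of either in the slopes was not tested. Of 10280 genes tested, 234 rose with age (2.28%) and 199 fell (1.94%), and scaling by library totals gave 188 and 285. The same fit on the other SCs called 1290 genes. The calls were fewer with any age left out, namely 142 without D0, 362 without D10, 32 without D24, 22 without D56 and 116 without D300, and early against adult ages as 2 groups gave 0 calls in edgeR, with 1486 genes at an unadjusted p under 0.05.

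Among the lists, 5 of 14 antigen presentation genes, 6 of 10 complement genes and 4 of 18 chemokine and cytokine genes rose with age in LTo-like cells, and none of them fell. DESeq2 called 7, 9 and 8 genes of these lists. H2-T23, a non-classical class I gene, was at 54.4, 108, 169, 253 and 378 CPM (slope 0.39 ± 0.04, adjusted p = 0.011). Tnfsf13b was at 4.97, 23.8, 42.1, 86.5 and 113 CPM (slope 0.62 ± 0.07, adjusted p = 0.011). Both rose at each later age and kept their calls with each age left out. H2-D1 was at 1193, 2610.3, 4648, 5883 and 7508 CPM (slope 0.38 ± 0.06, adjusted p = 0.0228, and 0.112 without D0, 0.0522 without D24 and 0.09 without D56) and Cd74 at 229, 352, 516, 652 and 1123 CPM (slope 0.32 ± 0.04, adjusted p = 0.0216, and 0.0517 without D24, 0.087 without D56 and 0.0583 without D300). Cxcl12 was at 1086, 4464, 5278, 5854 and 7047 CPM (slope 0.36 ± 0.07, adjusted p = 0.0345, and 0.249 without D0, 0.0705 without D24 and 0.116 without D56). By the levels given above, Tnfsf13b, Cd74 and Cxcl12 were also higher at D300 than at D0 in Ccl19-positive cells. The log2 ratio of H2-D1 in LTo-like cells to the other SCs was 1.92 at D0 and 0.05 at D300, so the other SCs rose more. The rises of these 4 genes were thus not particular to LTo-like cells. Ccl19 (slope -0.04 ± 0.10, adjusted p = 0.861), Ccl21a (0.40 ± 0.12, adjusted p = 0.103) and Vcam1 (0.13 ± 0.05, adjusted p = 0.171) were not called, and no gene of 11 in the organizer list or of 16 in the NF-kB list was called by edgeR. At an unadjusted p under 0.05 there were 4 in each, and DESeq2 called 2 of the organizer list and 0 of the NF-kB list. With an age left out edgeR called Ccl21a without D300 (slope 0.59, adjusted p = 0.0267) and Il7 without D10 (0.32, adjusted p = 0.0326). The sign of the Ccl19 slope turned when D300 was left out, to 0.05.

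The largest rises among well expressed genes were those of Jchain, Mmp3, Inmt, Galnt15, Cxcl14, Ptgs2, Efemp1 and Dpep1. Inmt, a methyltransferase, was at 7.84, 116, 400.4, 1024 and 1889 CPM (slope 1.05 ± 0.11, adjusted p = 0.00939) and the chemokine Cxcl14 at 1.57, 8.80, 33.7, 52.9 and 157 CPM (slope 0.86 ± 0.07, adjusted p = 0.004), higher at each later age and called with each age left out. Without the cell with most UMIs, Cxcl14 was at 19.9 CPM at D24 and 87.5 CPM at D300. Galnt15 was at 0.261, 2.64, 2.81, 6.94 and 52.4 CPM. Jchain, the joining chain of secreted antibodies and a plasma cell gene, was at 0, 0, 4.21, 5.87 and 188 CPM. Of its 68 UMIs at D300, found in 12 of 54 LTo-like cells, 1 cell held 41, and without it the level was 76.7 CPM. The other SCs of D300 held 295 CPM, but 1 cell had 1095 of their 1298 UMIs and without it the level was 46.3 CPM. Galnt15 and Jchain were too low to be tested without D0, D10, D56 or D300, so their values are a description and no p is given. Mmp3, the matrix protease stromelysin-1, was at 0.261, 5.28, 16.9, 169 and 270.3 CPM (slope 1.28 ± 0.18, adjusted p = 0.0222, and 0.0657 without D0 and 0.0572 without D24) and Ptgs2, cyclooxygenase-2, at 4.97, 5.57, 68.8, 121 and 190.3 CPM (slope 0.76 ± 0.14, adjusted p = 0.0319, and 0.134 without D0, 0.0679 without D24, 0.0984 without D56 and 0.0802 without D300). The value of Ptgs2 at D24 was 29.9 CPM without 1 cell that held 28 of 49 UMIs.

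The genes that fell most were H19, Dlk1, Hist1h2ap, 2810417H13Rik, Ube2c, Top2a, Birc5 and Agtr2. H19, an imprinted fetal RNA, was at 693, 63.1, 1.40, 3.74 and 0 CPM. It was too low to be tested without D0 or D10, so its values are a description, and 1 cell held 135 of its 215 UMIs at D10, without which the level was 23.6 CPM. Dlk1, an imprinted inhibitor of Notch, was at 1279, 125, 5.62, 0.534 and 13.8 CPM (slope -1.22 ± 0.20, adjusted p = 0.0247, and 0.182 without D0, 0.0647 without D24 and 0.0918 without D56). Eln, which encodes elastin, was at 606, 319, 295, 123 and 69.0 CPM (slope -0.35 ± 0.05, adjusted p = 0.0228, and 0.0502 without D0, 0.0918 without D56 and 0.0673 without D300) and the matrix protein Tnc at 102, 51.6, 32.3, 12.3 and 2.76 CPM (slope -0.47 ± 0.07, adjusted p = 0.0222, and 0.0522 without D24, 0.0918 without D56 and 0.0531 without D300). Top2a, which encodes a DNA topoisomerase and is 1 of the 6 cell cycle genes, was at 131, 40.5, 0, 1.07 and 0 CPM. Without D0 or D10 it was too low to be tested, as were Hist1h2ap, 2810417H13Rik, Ube2c, Birc5 and Agtr2, so their values are a description and no count of falling cell cycle genes is given. With cells that carried cell cycle genes left out, 133 genes were called over all genes.

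Cycling LTo-like cells were found at D0 and D10. A cell was counted as cycling if at least 2 of 6 cell cycle genes were detected after thinning to 2000 UMIs. By this count 19.3% of LTo-like cells were cycling at D0 (73 of 378, 15.5 to 23.7) and 4.99% at D10 (20 of 401, 3.07 to 7.60), against 6.94% and 2.92% of the other SCs. None was found among 88, 234 and 54 LTo-like cells at D24, D56 and D300, which allows up to 3.41, 1.28 and 5.56%. Of the other SCs 9 of 902 were cycling at D24 (0.998%), 0 of 2195 at D56 and 0 of 869 at D300. With at least 1 of the 6 genes, 36.5, 14.7, 5.68, 2.99 and 0% were counted, against 18.4, 11.2, 3.44, 1.59 and 1.27% of the other SCs. Without thinning, 37.8 and 11.2% were cycling at D0 and D10, against 13.9 and 6.21% of the other SCs. The interval of LTo-like cells at D0 lay above that of the other SCs (6.02 to 7.95%). Over the ages the mean difference was 2.69 percentage points (p = 0.5, exact two-sided sign-flip permutation test). This test could not pass, since only 3 ages had a difference and the smallest p it allows is then 0.25. In the fit across genes against the other SCs, Cdk1 was higher in LTo-like cells by edgeR (0.81 ± 0.22, adjusted p = 0.0352, and 0.102 without D0, 0.156 without D10 and 0.129 without D56). DESeq2 called 0 of the 6 cell cycle genes. Mki67 was too low to be tested without D0 or D10, so no p is given for it and no count of higher cell cycle genes.

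The difference between LTo-like cells and the other SCs itself changed with age, which was tested as an interaction of class and log2(day + 1). The make-up of both classes changed over the same ages, and its part in the ratios was not tested. The log2 ratio of LTo-like cells to the other SCs rose with age in 114 of 11295 genes (1.01%) and fell in 243 (2.15%), and scaling by library totals gave 128 and 167. For Clu the ratio was 3.80, 1.73, 1.91, 1.91 and 0.93, with 1 CPM added to each level, and it fell by the interaction test (slope -0.34 ± 0.05, adjusted p = 0.00469). For Ccl21a it was 3.90, 1.52, 1.68, 1.39 and 0.90 (slope -0.37 ± 0.05, adjusted p = 0.0051), for Mfge8 3.72, 1.42, 1.87, 1.39 and 0.88 (-0.34 ± 0.05, adjusted p = 0.0066) and for Enpp2 4.13, 1.40, 2.02, 1.30 and 0.74 (-0.41 ± 0.06, adjusted p = 0.00652). In these 4 genes the ratio was near 4 at D0 and under 1 at D300. Irf8 went through 3.21, 0.89, 1.19, 0.84 and 0.23 (-0.38 ± 0.06, adjusted p = 0.0066), Nfkb2 through 2.40, 0.77, 1.0, 0.64 and 0.51 (-0.27 ± 0.05, adjusted p = 0.015) and Vcam1 through 2.24, 0.56, 0.87, 0.70 and 0.43 (-0.22 ± 0.04, adjusted p = 0.0242). For Ccl19 the ratio was 3.99, 1.48, 1.0, 1.92 and 1.03 (-0.35 ± 0.08, adjusted p = 0.0351). Without D0 the calls fell to 29, all of them rising ratios. The call was lost for Clu without D0 (adjusted p = 0.271), for Ccl21a without D0 (adjusted p = 0.116), for Mfge8 without D0 (adjusted p = 0.364) and for Enpp2 without D0 (adjusted p = 0.322). It was also lost for Irf8 without D0 (adjusted p = 0.67), for Nfkb2 without D0 (adjusted p = 0.989), for Vcam1 without D0 (adjusted p = 0.988), D24 (0.0621) or D300 (0.0514) and for Ccl19 without D0 (adjusted p = 1), D24 (0.0512) or D300 (0.0785). Without D24 the calls were 188, without D56 216, without D300 240 and without D10 697.

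**Figure D5:**
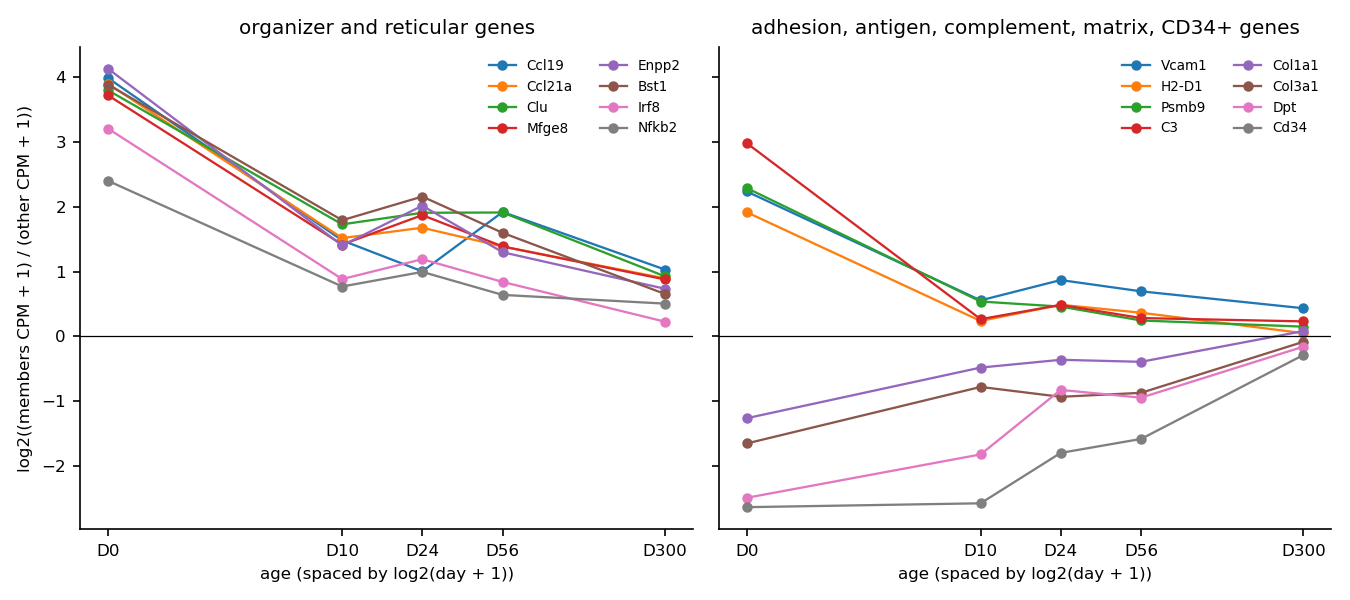
Log2 ratio of the level in LTo-like cells to that in the other SCs (y axis, 1 CPM added to both levels) at each age (x axis) for 16 genes of the lists. The ratios of Ccl19, Ccl21a, Clu, Mfge8, Enpp2 and Bst1 lie between 3.72 and 4.13 at D0 and between 0.66 and 1.03 at D300, and those of Col1a1, Col3a1, Dpt and Cd34 move from between -2.64 and -1.26 to between -0.29 and 0.08.

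In Clu and Mfge8 the level of the other SCs moved more than that of LTo-like cells. Clu went from 191 to 2361 CPM between D0 and D300 in the other SCs and from 2677 to 4490 CPM in LTo-like cells, and Mfge8 from 440 to 2715 CPM and from 5814 to 4995 CPM. The share of Ccl19-positive cells among the other SCs was 2.31% at D0 and 20.8% at D300. Within the Ccl19-positive cells Mfge8 was at 5765 CPM at D0 and 4858 CPM at D300 and Clu at 2302 and 4759 CPM, and within the Cd34-positive cells Mfge8 was at 272 and 1287 CPM and Clu at 107 and 889.9 CPM. By list, the ratio fell in 5 of 8 follicular dendritic and marginal reticular cell genes, 5 of 17 lymphotoxin and NF-kB genes, 7 of 14 antigen presentation genes and 4 of 9 T-zone reticular cell markers, and rose in none of them. It rose in 9 of 25 matrix genes and 2 of 12 CD34+ SC markers and fell in none. Col1a1 went through -1.26, -0.48, -0.36, -0.39 and 0.08 (slope 0.14 ± 0.03, adjusted p = 0.0163), Dpt through -2.49, -1.82, -0.83, -0.95 and -0.16 (0.28 ± 0.03, adjusted p = 0.00382) and Cd34 through -2.64, -2.58, -1.80, -1.58 and -0.29 (0.25 ± 0.05, adjusted p = 0.0243). Dpt kept its call with each age left out, Cd34 lost it without D24 (adjusted p = 0.0578) or D300 (0.134) and Col1a1 without D0 (adjusted p = 0.801). Of the immediate early and heat-shock genes 5 of 12 fell in ratio (3 called by DESeq2), beside the higher summed level of LTo-like cells at D0 given above.

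Named by size on the falling side were Csmd1, Csf2rb, Serpina10, Csf2rb2, Spic, Serpina1c, Cd72 and Dsc3, with slopes from -0.57 to -0.43. Csf2rb, the beta chain shared by the receptors for IL-3, IL-5 and GM-CSF, was at 194, 313, 188, 205 and 124 CPM in LTo-like cells and at 10.6, 144, 71.8, 118 and 173 CPM in the other SCs (slope -0.56 ± 0.06, adjusted p = 0.00253). It shares sequence with its neighbour Csf2rb2, so the split of reads between them is uncertain. Dsc3 was at 236, 269, 219, 259 and 57.9 CPM in LTo-like cells and at 13.7, 101, 58.6, 90.0 and 36.4 CPM in the other SCs (slope -0.43 ± 0.07, adjusted p = 0.00941). The classes lay far apart in both genes at D0 and close together at D300. On the rising side were Clps, Cpe, Tagln, Cpz, Spint2, Cdkn1c, Atp1b1 and Qpct. Clps is a pancreatic acinar gene that passed the filter through D0 and D24, so its values are a description. It was at 164 and 131 CPM in LTo-like cells and 1021 and 126 CPM in the other SCs. Cdkn1c, an imprinted inhibitor of cyclin-dependent kinases, was at 316, 105, 89.9, 90.2 and 77.2 CPM in LTo-like cells and at 2204, 307, 150.4, 100.5 and 105 CPM in the other SCs (slope 0.34 ± 0.05, adjusted p = 0.00589, and 0.415 without D0). Csf2rb lost its call without D0 (adjusted p = 0.0674) and Dsc3 without D0 (adjusted p = 0.944), and of the 16 genes Atp1b1 alone kept its call with each age left out, while Clps could not be tested without D0 or D24.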

How the data were processed

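Single-cell RNA was measured in CD45-CD24- cells of the mLN. The deposited file is 1 matrix of raw counts (UMIs) for 27998 genes in 17692 cells, to which the authors had applied no normalization. The submitters' processing notes name Cell Ranger 2.0.0, STAR, Seurat 2.3.3 and mm10. The use of strand in counting was not stated, so reads of overlapping or antisense genes cannot be separated. Names of cells hold their age and a serial number, with no barcode, and no cell was identical to another. Symbols were matched to GENCODE vM21 (26646 of 27998).

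Cells with 1000 to 4600 genes and at most 4.5% mitochondrial UMIs were kept, and doublets were not removed. The members, gene lists and tests were chosen with earlier results of these data known. Counts were summed per class and age (10 pools of 2 classes, or 5 of LTo-like cells) and tested with the quasi-likelihood test of edgeR 4.0.16 after TMM scaling and filterByExpr, with age as a block, a slope on log2(day + 1), or their interaction with class. P-values were adjusted by Benjamini-Hochberg over all genes tested at a threshold of 0.05. Named by size were the 8 highest and 8 lowest fold changes among called genes with at least 50 CPM in the higher class or age and, for comparisons of classes, the same direction at all 5 ages. The other named genes came from the lists. Median depth was 6298 to 9622 UMIs in LTo-like cells. Intervals are exact 95% intervals, and a count of 0 was given a limit of 3 counts. Computation used Python 3.11.15, numpy 2.4.6, scipy 1.17.1, pandas 2.3.3, matplotlib 3.10.9, R 4.3.3 and limma 3.58.1, and the fits were tested on simulated data. Alternatives were DESeq2 1.42.0, scaling by library totals, no filter, other marker rules, no limits on cells, thinning to 2000 UMIs, no age block and each age left out. The fit of the age slope to the other SCs, the split of LTo-like cells by Cxcl13 and levels without the cell with most UMIs of a gene were added after the data had been seen. Some genes of the lists are not reported here by name.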

Additional observations from a re-analysis of the deposited data

Results flagged for a closer look

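The difference between LTo-like cells and the other SCs changed with age in 357 genes by the interaction test of edgeR (243 falling and 114 rising ratios).

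Joint detection of the markers was also found in cells that the rule left out. At least 2 of the 4 genes were detected in 7.27% of 564 Pecam1-positive cells at D0, in 11.7% of 521 at D10, in 5.83% of 686 at D24, in 6.76% of 1110 at D56 and in 3.10% of 774 at D300, where Madcam1 is a gene of venular endothelium. Among cells with neither Pecam1 nor Col1a2, the share was 13.9% of 36 cells at D24, 11.2% of 134 at D56 and 1.67% of 418 at D300. The younger ages had few such cells, with 0 of 5 at D0 and 2 of 14 at D10.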

How the results depend on the processing

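The classes were paired by age in the fits. For the libraries of an age, no paired analysis was possible because the cell names carry a running number and no replicate number. LTo-like cells were the largest share of SCs at D10 and the smallest at D300 under each alternative, none of which left out adjacent-tissue cells. The shares in age order were 7.44, 10.7, 2.21, 1.80 and 0.325% with at least 3 of 4 markers, 9.29, 20.9, 4.51, 4.72 and 3.68% without Madcam1 in the rule, and 5.10, 8.68, 3.00, 2.19 and 1.49% after thinning. Without limits on cells the share at D56 was 7.37%, and without the 5% of cells with most UMIs that at D0 was 10.7%.

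Against the other SCs, 1603 genes were called. This became 530 after thinning, 0 without the age block (1415 at an unadjusted p under 0.05) and 883 to 1606 with an age left out. Against Ccl19-positive cells the 65 calls became 30 with DESeq2, 234 without a filter, 139 with at least 3 of 4 markers, 118 without Madcam1, 32 after thinning, 0 without the age block (106 at an unadjusted p under 0.05) and 30 to 72 with an age left out. Against Cd34-positive cells the 2394 calls became 846 without the age block, 614 after thinning and 1698 to 2329 with an age left out. The 433 calls of the age slope became 695 with DESeq2, 792 without a filter, 65 with at least 3 of 4 markers, 55 after thinning, 0 for early against adult ages, 133 without cells that held a cell cycle gene, 1290 in the other SCs and 22 to 362 with an age left out. The 357 calls of the change in difference became 725 without a filter, 553 with at least 3 of 4 markers, 215 after thinning and 29 to 697 with an age left out.

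The sign of a fold change turned for Il7 against the other SCs after thinning (-0.35), and for Ltbr against SCs without Mfap4 and Rgs5 (0.054) and with D24 or D56 left out (range -0.14 to 0.032 over the ages left out). Against Ccl19-positive cells it turned for Clu without Madcam1 in the rule (-0.16) and after thinning (-0.46), for Mfge8 after thinning (-0.083), for Grem1 with at least 3 of 4 markers (0.0065) and for Sfrp2 with at least 3 of 4 markers (-0.0046). The slope of Ccl19 turned with D300 left out (range -0.13 to 0.053) and for early against adult ages (0.53). Leaving out the cell with most UMIs of a gene also lowered Cd74 to 78.9 CPM and Ly6a to 93.6 CPM in Ccl19-positive cells at D0 and Sfrp2 to 35.6 CPM in LTo-like cells at D24. The causes were not tested. With 54 LTo-like cells and a median depth of 6298 UMIs at D300, a count of 0 there allows a level of up to 8.27 CPM.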
